A study of Mus musculus with 5 samples.

Results

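Trem2, Tyrobp, Apoe, Apoc1, Apoc2, Lpl, Abca1, Abcg1, Plin2 and Soat1 are 10 genes of microglial lipid sensing, lipid transport between cells and lipid storage. They were taken by symbol from a deposited expression table, and are 10 of its 19221 genes. All 10 reached 1 RPKM (reads divided by gene length and by the library total) in at least 1 library and so are among the 12783 genes analysed. The table describes a mouse stroke made in the caudate putamen, the dorsal part of the striatum. Male C57BL/6 mice aged 9 weeks received the dye rose bengal (100 mg/kg, intraperitoneally) and green laser light (532 nm, 30 mW, 2 min) from a fibre tip set 3 mm under the dura, which clots the lit vessels. Surgery was under isoflurane, and the strain is the only genotype given. Micro-punched tissue of 6 animals was pooled into 1 total RNA library for each of 4 times: 4 hours, day 1, day 3 and day 10 after the light.

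The single reference library, called sham, was a pool from the opposite, left hemisphere of the mice, where the laser was applied before the dye. The number of its animals and their times after surgery are not stated in the labels. With 1 pooled library per group there is no spread between samples, so no p-value is given. Every difference below compares these libraries, with no replicate check. The intervals given are 95% counting intervals of a ratio, which cover sampling of fragments only. A gene is called higher or lower by size where log2((RPKM + 1) / (reference RPKM + 1)), here the log2 fold, is at least 1 or at most -1, which is 2-fold on that scale. The scale understates the differences of low genes, so ratios of RPKM are given beside it.

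TREM2 is a lipid-binding receptor on the surface of microglia and some macrophages, and it signals through the adaptor TYROBP (DAP12). APOE, APOC1 and APOC2 are apolipoproteins, which carry lipids between cells, and lipoprotein lipase (Lpl) releases fatty acids from the triglycerides of lipoproteins. After cells engulf myelin or other debris, the cholesterol transporters ABCA1 and ABCG1 export sterol, SOAT1 esterifies it for storage, and PLIN2 coats the droplets in which neutral lipid is stored. In brain, astrocytes and reactive microglia are known sources of Apoe, and a TREM2-dependent reactive microglial state is known to raise Apoe and other lipid genes.

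Promoter sequence in RefSeq (GRCm38.p6) was matched for 6 of the 10 genes, as windows from 250 bases before to 50 bases after the start. No window was matched for Tyrobp, Apoc1, Lpl and Abcg1. The windows of Trem2, Apoe, Apoc2, Abca1 and Plin2 are shown because, of the 6 genes with a window, these have the largest differences below. They are written 5′ to 3′ on the gene's strand, from chr17:48346151-48346450 (+) for Trem2, chr7:19699139-19699438 (-) for Apoe, chr7:19677892-19678191 (-) for Apoc2, chr4:53159846-53160145 (-) for Abca1 and chr4:86670010-86670309 (-) for Plin2. Apoe has 3 windows in RefSeq, and the one at the annotated gene start is shown. Capitals mark letters that match a searched motif on either strand.
Trem2: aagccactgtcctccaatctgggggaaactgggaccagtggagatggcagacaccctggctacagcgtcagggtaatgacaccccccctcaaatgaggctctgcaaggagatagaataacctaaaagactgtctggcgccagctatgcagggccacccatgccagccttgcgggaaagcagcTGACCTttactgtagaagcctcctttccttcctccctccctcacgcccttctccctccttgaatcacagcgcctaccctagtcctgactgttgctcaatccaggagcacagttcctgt
Apoe: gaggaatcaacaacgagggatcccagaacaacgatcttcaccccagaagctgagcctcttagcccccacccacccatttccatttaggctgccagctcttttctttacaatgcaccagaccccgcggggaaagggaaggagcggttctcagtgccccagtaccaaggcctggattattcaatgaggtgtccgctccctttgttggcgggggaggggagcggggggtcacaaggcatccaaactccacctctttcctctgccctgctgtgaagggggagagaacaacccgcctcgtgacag
Apoc2: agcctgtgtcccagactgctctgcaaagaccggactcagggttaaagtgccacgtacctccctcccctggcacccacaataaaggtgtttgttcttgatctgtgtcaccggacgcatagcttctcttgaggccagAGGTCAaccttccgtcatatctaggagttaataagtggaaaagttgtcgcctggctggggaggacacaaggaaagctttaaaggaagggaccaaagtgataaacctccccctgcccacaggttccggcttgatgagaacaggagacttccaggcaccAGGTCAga
Abca1: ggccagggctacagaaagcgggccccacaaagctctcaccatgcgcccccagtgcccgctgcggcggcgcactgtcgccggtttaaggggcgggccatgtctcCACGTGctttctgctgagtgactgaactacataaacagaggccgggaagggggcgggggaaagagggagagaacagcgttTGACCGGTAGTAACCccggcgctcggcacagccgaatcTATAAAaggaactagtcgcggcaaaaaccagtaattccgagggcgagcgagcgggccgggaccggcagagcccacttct
Plin2: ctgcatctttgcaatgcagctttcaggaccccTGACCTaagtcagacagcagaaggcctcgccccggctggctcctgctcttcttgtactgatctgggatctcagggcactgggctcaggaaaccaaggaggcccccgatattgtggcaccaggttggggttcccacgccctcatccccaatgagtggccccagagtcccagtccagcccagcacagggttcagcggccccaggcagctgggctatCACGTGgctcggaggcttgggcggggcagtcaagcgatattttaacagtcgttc

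The capitals stand for AGGTCA, a binding unit of nuclear receptors such as LXR (in Trem2, Apoc2 and Plin2), CACGTG, the E-box (in Abca1 and Plin2), TATAAA (in Abca1), and 1 spaced pair in Abca1. AGGTCA was in 3 of the 6 windows and in 16.3% of all 32851 RefSeq windows of this length. CACGTG was in 2 of 6, against 7.15% of all windows, and TATAAA in 1 of 6, against 13.6%. AGGTCA repeated after 4 free bases was in 0 of 6 and in 0.0152% of all windows. A looser spaced pair, GGTTAC and GGTCA with 4 free bases between them, was chosen after the Abca1 sequence was seen; it starts 67 bases before the Abca1 start on the opposite strand, and 0.0365% of all windows hold it. GAGGAAGT, a long form of the PU.1 site of myeloid cells, was in 0 of 6 against 3.20%, and its core GGAA, not capitalised, was in 6 of 6 against 96.0%. The marked matches do not overlap each other. They describe letters in these windows and no binding was measured.

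The libraries held between 42261787 and 48013846 reads, recovered from the steps of low RPKM values. Because RPKM is relative to the library total, a shift in abundant RNA moves all other genes; median-of-ratios scaling divides out a log2 factor relative to sham of 0.41 at 4 hours, -0.05 on day 1, 0.16 on day 3 and 0.14 on day 10. The median log2 fold of all genes analysed was accordingly 0.28 at 4 hours, and -0.01 after that scaling. Of all genes called by size at 4 hours, 66.9% were higher as deposited and 20.97% after scaling. Values below are as deposited, and for the 10 genes the scaled value is given where it changes the sign or call of a difference from sham.

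**Figure D1:**
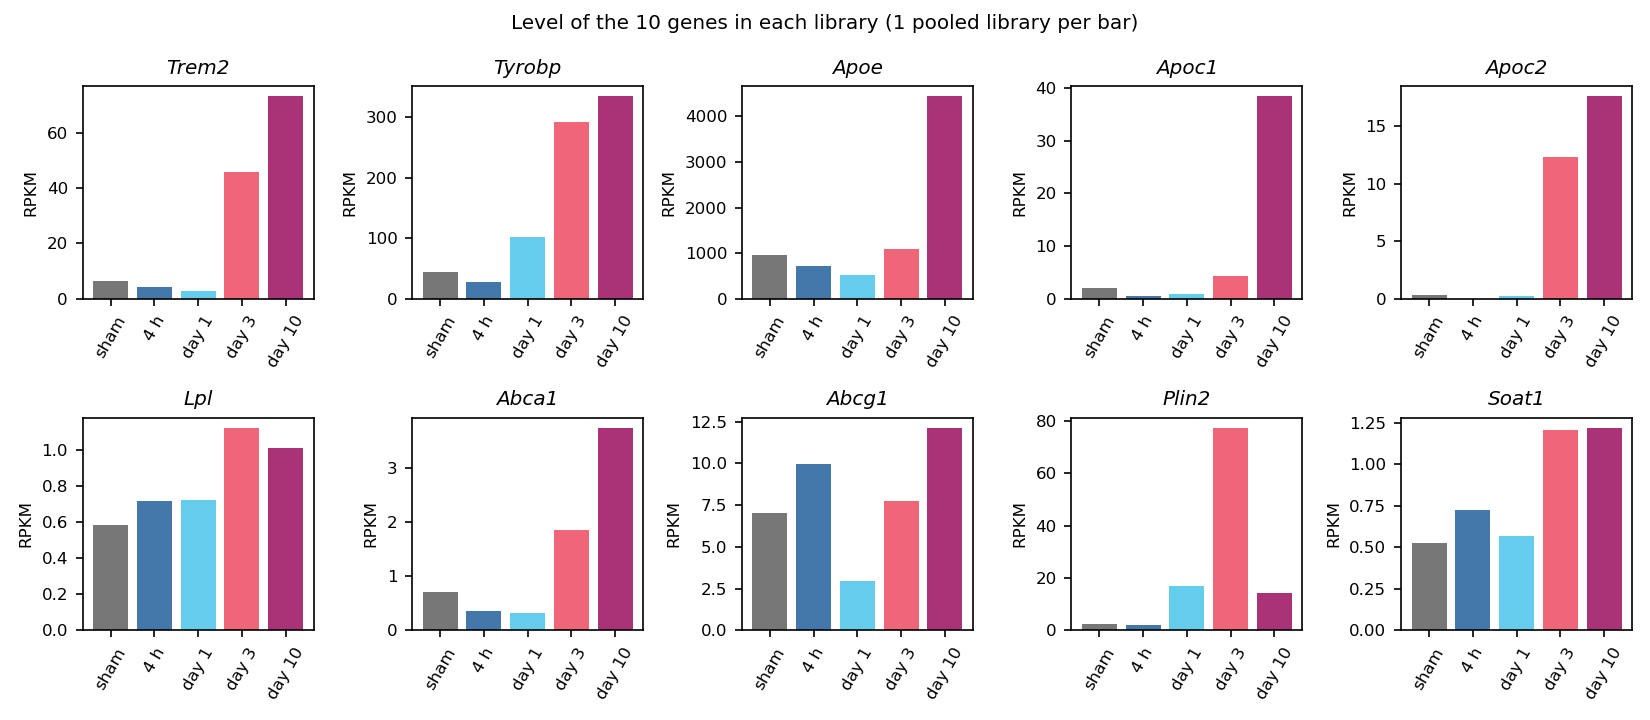
RPKM of each of the 10 genes (vertical axes, each from 0) in the sham library and at 4 hours, day 1, day 3 and day 10 (bars, 1 pooled library each). Trem2, Tyrobp, Apoe, Apoc1, Apoc2, Abca1 and Abcg1 have their highest bar on day 10, while Plin2 peaks on day 3 with 77.4 RPKM.

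Most of the 10 genes were at or below sham at the early times, and all were above it on day 3 (Abcg1 as deposited, and at -0.02 after scaling) and day 10. At 4 hours 0 of the 10 were called higher, where 2.20% of all genes were, and 0 were called lower, where 1.09% were. The median of the members was -0.36 against 0.28 for all genes, and 7 of 10 lay below sham, with Lpl as well after scaling (-0.04). At day 1, 2 were called higher (3.33% of all genes) and 1 lower (1.35%), with a member median of -0.22 against -0.02. At day 3, 4 were called higher (9.04%) and 0 lower (0.618%), and all 10 had a log2 fold above 0 as deposited, with a median of 0.79 against 0.12. At day 10, 7 were called higher (4.20%) and 0 lower (0.172%), with a median of 2.22 against 0.07. The 4 comparisons share the sham library, so its own values enter each of them.

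Measured from 1 time to the next, the step from day 1 to day 3 had the most members called and the highest member median. From 4 hours to day 1, 2 of the 10 were called higher (2.70% of all genes) and 1 lower (5.70%), with a member median of -0.02 (0.12 after scaling) against -0.31. Of all genes called in that step, 32.2% were higher as deposited and 86.7% after scaling. From day 1 to day 3, 8 were called higher (7.46%) and 0 lower (0.939%), with a median of 1.31 against 0.13. Scaling took Apoe from 1.09 to 0.89 and Abcg1 from 1.14 to 0.96 in that step, and the share of higher among all genes called from 88.8% to 78.3%. From day 3 to day 10, 2 were called higher (0.626%) and 1 lower (2.77%), with a median of 0.54 against -0.01.

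The receptor Trem2 and its adaptor Tyrobp parted on day 1 and were both high from day 3 on. Exon numbers here and below count blocks of exons merged over all annotated transcripts of a gene, which can exceed the exons of 1 transcript. Trem2 (ENSMUSG00000023992, GRCm38 chr17:48346401-48354147, + strand, 5 exons) was at 6.52 RPKM in sham, 4.43 at 4 hours, 2.94 on day 1, 45.8 on day 3 and 73.2 on day 10. It was thus below sham in both early libraries and far above it in both late ones. Its ratio to sham was 0.451 on day 1 (0.395 to 0.514), 7.03 on day 3 (6.50 to 7.61) and 11.2 on day 10 (10.4 to 12.1). The day 1 log2 fold, -0.93, did not reach the size limit, while those of day 3 (2.64) and day 10 (3.30) did. With a pseudocount of 0.1 RPKM the day 1 value was -1.12, past the limit. Between day 1 and day 3 Trem2 was 15.6-fold higher (13.9 to 17.4), the 12th largest log2 fold (3.57) among the genes analysed, and from day 3 to day 10 it was 1.60-fold higher (1.54 to 1.65).

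Tyrobp (ENSMUSG00000030579, chr7:30413760-30417585, + strand, 6 exons), whose cytoplasmic motif recruits the kinase SYK, was at 43.9, 28.7, 102, 293 and 335 RPKM in the same order. It was below sham only at 4 hours and already above it on day 1. The ratio to sham was 0.655 at 4 hours (0.580 to 0.741), 2.32 on day 1 (2.12 to 2.54), 6.69 on day 3 (6.16 to 7.27) and 7.64 on day 10 (7.05 to 8.30). The log2 folds were -0.59, 1.20, 2.71 and 2.91, so Tyrobp was called higher on day 1, day 3 and day 10. Within a library, the ratio of Trem2 to Tyrobp does not depend on scaling. It was 14.9% in sham (13.4% to 16.5%), 15.4% at 4 hours, 2.89% on day 1 (2.56% to 3.26%), 15.6% on day 3 and 21.8% on day 10 (21.1% to 22.6%). The day 1 interval lay below those of the other 4 libraries, and the day 10 interval above them. The exon length used for Trem2, 4946 bases, is 4.55 times that of its longest coding transcript, so its RPKM is a low estimate beside that of Tyrobp, while comparisons across libraries keep the same length.

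Markers of several blood and glial cell types also differed between these libraries. The 12 microglial markers other than Trem2 and Tyrobp, none of them at 0 in any library, summed to 78.8 RPKM in sham, 95.4 at 4 hours, 60.2 on day 1, 381 on day 3 and 339 on day 10. At 4 hours their median log2 fold was 0.13 as deposited and -0.09 after scaling, with 0 of 12 called. At day 1 their median log2 fold was -0.52 with 0 of 12 higher and 1 lower, while on day 3 it was 1.38 with 8 of 12 higher, and on day 10 1.58 with 9 of 12 higher (8 after scaling). The 12 monocyte and macrophage markers summed to 24.0, 18.3, 90.2, 149 and 280 RPKM, and of the 6 analysed 4 were higher on day 1 (median 1.13), 4 on day 3 (1.92) and 2 on day 10 (0.95). Lyz2, a lysozyme gene of myeloid cells, made up 245 of the 280 RPKM on day 10, while Arg1 and Pf4 were lower than on day 3 (log2 folds -3.37 and -1.17). At 4 hours Lyz2 was the only one of the 6 called, and it was lower than sham (log2 fold -1.25). After scaling 2 of the 6 were lower there. Ccr2 and Chil3, which mark recruited monocytes and some macrophages, were at 0 in the 4-hour library only. The markers of this list were mostly low, with a median over the 12 of 0.148 RPKM in sham. The 6 neutrophil markers in the table summed to 12.6, 7.45, 154, 13.9 and 18.7 RPKM, highest on day 1. Of the 4 analysed, Retnlg, S100a8 and S100a9 were called higher on day 1. Csf3r was not, and it was the only one called higher on day 3 and day 10 (log2 folds 1.49 and 2.16). Cxcr2 and Ngp, which mark neutrophils, were at 0 at 4 hours, but they did not reach 1 RPKM in any library. In bulk tissue, fewer or more cells of a type and less or more RNA per cell cannot be told apart. The part of these markers' cells in the member values was not tested.

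Set against the median of the microglial markers in the same comparison, Trem2 was 0.41 below it on day 1, and 1.26 and 1.72 above it on day 3 and day 10 on the log2 scale. Tyrobp was 1.71, 1.33 and 1.32 above it at these times. Apoe was 0.37 and 1.18 below it on day 1 and day 3 and 0.64 above it on day 10. Apoc1 was 0.13 and 0.55 below it and then 2.14 above, and Apoc2 was 0.45, 1.92 and 2.20 above it. Plin2 was 2.97, 3.19 and 0.63 above it at these times. On day 10 Lpl, Soat1, Abcg1 and Abca1 were 1.24, 1.04, 0.88 and 0.11 below it. The markers are low, with a median of 1.74 RPKM in sham and 9.53 on day 10. The 1 RPKM added on this scale shrinks their log2 folds more than those of abundant genes such as Apoe. These offsets therefore depend on expression level as well.

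**Figure D2:**
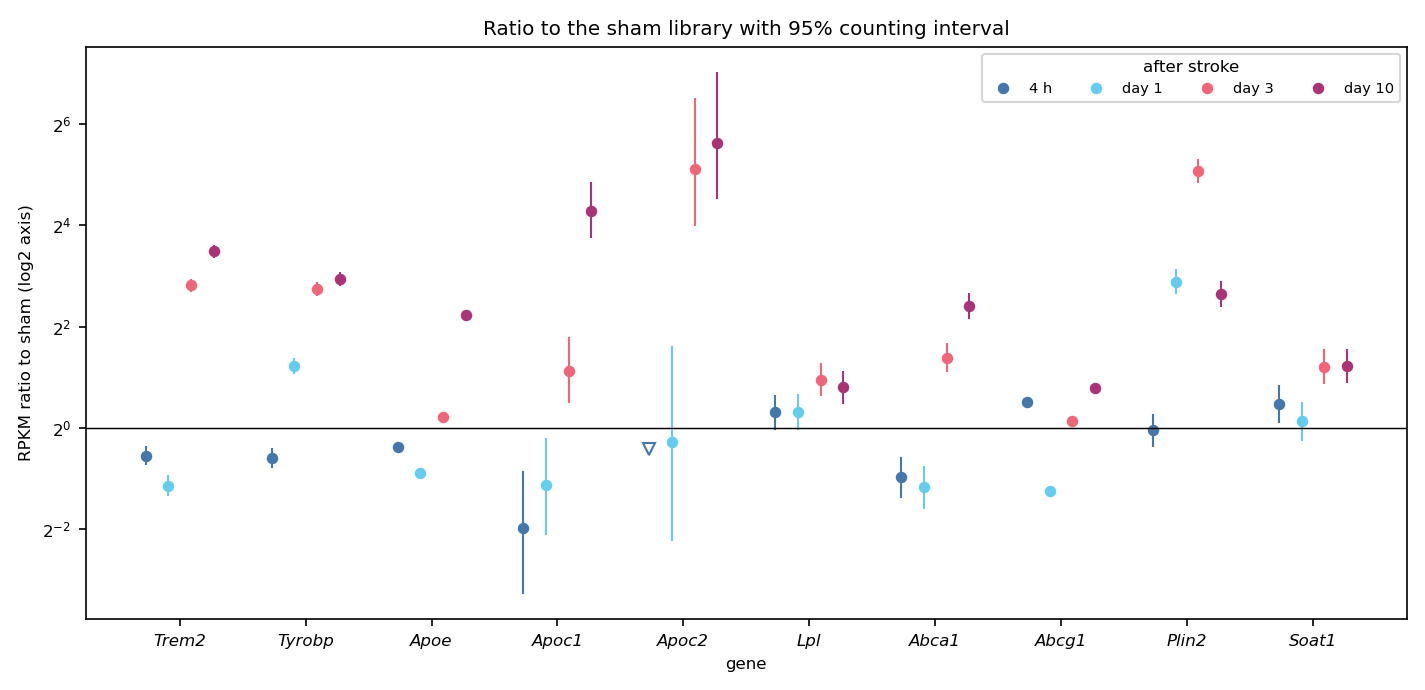
RPKM ratio to the sham library (vertical axis, log2 scale) for each gene at the 4 times (points, 1 pooled library each), with 95% counting intervals as vertical lines where reads were whole. The open triangle marks the upper bound for Apoc2 at 4 hours, where it had 0 reads, and Abcg1 has no intervals; on day 10 every point is above 1.

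Apoe, the main apolipoprotein made in the brain, was abundant in every library. Apoe (ENSMUSG00000002985, chr7:19696109-19699188, - strand, 5 exons) was at 952 RPKM in sham, 726 at 4 hours, 513 on day 1, 1096 on day 3 and 4442 on day 10. It ranked 55th of all genes analysed in sham, 162nd on day 1 and 11th on day 10. The sham ratio of this gene was 0.539 on day 1 (0.531 to 0.547), 1.15 on day 3 (1.14 to 1.17) and 4.67 on day 10 (4.62 to 4.71). The log2 fold was -0.89 on day 1, 0.20 on day 3 and 2.22 on day 10, so Apoe passed the size limit against sham on day 10 alone. From day 3 to day 10 it was 4.05-fold higher (4.02 to 4.09), the 12th largest log2 fold (2.02) in that step. Markers of astrocytes, another source of Apoe, summed to 395, 390, 550, 748 and 527 RPKM over 11 genes. Gfap, a marker of reactive astrocytes, made up 509 of the 748 RPKM on day 3, when the median log2 fold of the 11 was -0.16 with 2 higher (1 higher and 2 lower after scaling). Their median was 0.26 at 4 hours (-0.11 after scaling), -0.32 on day 1 and 0.25 on day 10. Gfap was the only one of the 11 called at 4 hours, where it was lower than sham (log2 fold -1.91). It was also the only one called on day 1, where it was higher (1.41). The part of these 11 markers in the Apoe values was not tested.

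Apoc1, a small apolipoprotein that limits lipoprotein uptake, was far less abundant than Apoe, and its lowest value was at 4 hours, where that of Apoe was on day 1. Apoc1 (ENSMUSG00000040564, chr7:19689481-19692660, - strand, 3 exons) was at 1.97, 0.497, 0.899, 4.29 and 38.4 RPKM, from 66, 17, 31, 135 and 1372 reads. The early libraries were below sham and day 10 was far above all others. Its ratio to sham was 0.252 at 4 hours (0.103 to 0.546), 2.17 on day 3 (1.41 to 3.40) and 19.5 on day 10 (13.7 to 28.5). The log2 fold at 4 hours was -0.99 as deposited and -1.11 after scaling, which passes the limit, and in the authors' deposited table the GFOLD value, a shrunken log2 fold, was -1.10. With a pseudocount of 0.1 RPKM the log2 folds at 4 hours, day 1 and day 3 were -1.80, -1.05 and 1.08, all past the limit. Between day 3 and day 10 Apoc1 was 8.95-fold higher (6.96 to 11.7), and its log2 fold of 2.90 was the highest of all genes analysed in that step. As a share of Apoe in the same library, Apoc1 was at 0.207% in sham (0.143% to 0.291%), 0.0685% at 4 hours, 0.175% on day 1, 0.392% on day 3 and 0.865% on day 10 (0.801% to 0.932%).

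Apoc2, the activating cofactor of lipoprotein lipase, was near the limit of detection until day 1 and high from day 3. Apoc2 (ENSMUSG00000002992, chr7:19671579-19677941, - strand, 6 exons) had 13 reads in sham, 0 at 4 hours, 11 on day 1, 424 on day 3 and 688 on day 10, which is 0.356, 0, 0.292, 12.3 and 17.6 RPKM. The 0 reads at 4 hours allow up to 0.161 RPKM, at a floor of 3 fragments, and the upper counting limit of the ratio to sham there was 0.747. With a pseudocount of 0.1 RPKM the log2 fold at 4 hours was -2.19, past the limit that it does not reach with 1 RPKM (-0.44). The ratio to sham was 34.7 on day 3 (16.1 to 91.0) and 49.5 on day 10 (23.2 to 129), with log2 folds of 3.30 and 3.78. Against day 1, Apoc2 was 42.3-fold higher on day 3 (18.5 to 123). Its share of Apoe was highest on day 3, at 1.13% (0.980% to 1.29%), and was 0.397% on day 10 (0.356% to 0.441%), unlike that of Apoc1, which was highest on day 10. Another gene model on the same strand, Gm44805, shares 646 of the 813 exon bases of Apoc2, so how reads were split between them is uncertain; Gm44805 was at 0.582, 0, 0.339, 13.3 and 24.2 RPKM.

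The 3 apolipoprotein genes lie side by side on chromosome 7, with Apoc4 between Apoc1 and Apoc2. Apoc4, another apolipoprotein, which Gm44805 also overlaps, was at 8.41 RPKM on day 10 against 0.202 in sham (log2 fold 2.97) and at 0.336 on day 3. The flanking genes of the locus did not share this size. Clptm1 beyond Apoc2 had a day 10 log2 fold of 0.02, and Tomm40 beyond Apoe, which encodes a mitochondrial import channel, of -0.03. Nectin2, a cell adhesion gene further along, was at 1.20 on day 3 and 0.84 on day 10.

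**Figure D3:**
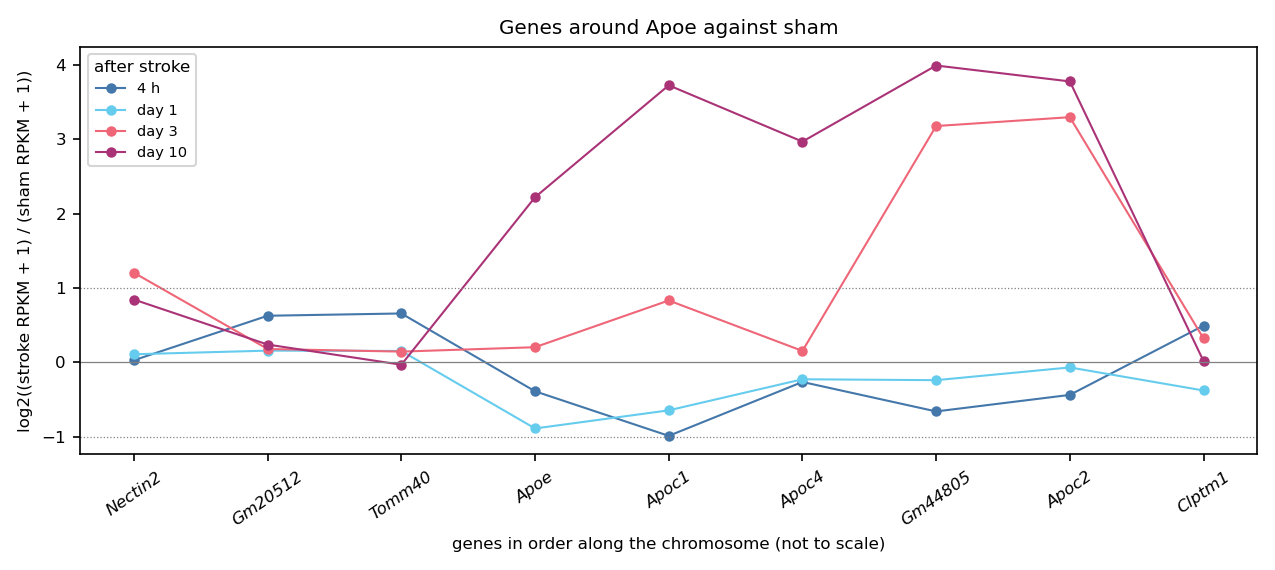
log2 fold against sham (vertical axis, with dotted lines at the size limit) of the genes around Apoe in their order along the chromosome (horizontal axis, not to scale), 1 line for each time after stroke. At day 10 Apoe, Apoc1, Apoc4, Gm44805 and Apoc2 lie between 2.22 and 3.99, while Tomm40 and Clptm1 lie near 0.

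Lpl, which hydrolyses the triglycerides of lipoproteins, was low throughout. The exon length used for it, 10478 bases, is 2.55 times that of its only coding transcript, so its RPKM is a low estimate. Lpl (ENSMUSG00000015568, chr8:68880491-68907448, + strand, 13 exons) was at 0.582, 0.717, 0.721, 1.12 and 1.01 RPKM, a range of 1.93-fold. The sham ratio of this gene was 1.93 on day 3 (1.56 to 2.40) and 1.73 on day 10 (1.40 to 2.15), and at 4 hours and day 1 the interval included 1. The log2 folds were 0.12, 0.12, 0.43 and 0.35, all inside the size limit, and the one at 4 hours became -0.04 after scaling. Apoc2, its cofactor, and Lpl itself thus differed in size: on day 10 their ratios to sham were 49.5 and 1.73.

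The sterol exporter Abca1, which loads cholesterol onto lipid-poor APOE, was below sham early and above it late. Abca1 (ENSMUSG00000015243, chr4:53030787-53159895, - strand, 50 exons) was at 0.711 RPKM in sham, 0.359 at 4 hours, 0.315 on day 1, 1.86 on day 3 and 3.75 on day 10. The ratio to sham was 0.505 at 4 hours (0.384 to 0.660), 0.442 on day 1 (0.332 to 0.584), 2.61 on day 3 (2.17 to 3.15) and 5.27 on day 10 (4.47 to 6.26). On the log2 scale with the pseudocount these were -0.33, -0.38, 0.74 and 1.47, so only day 10 passed the limit. The day 3 difference passed it with a pseudocount of 0.1 RPKM (1.27), and in the authors' deposited table the GFOLD value on day 3 was 1.17.

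Abcg1, which exports sterol to larger lipoproteins, had its lowest value on day 1. Abcg1 (ENSMUSG00000024030, chr17:31057675-31117988, + strand, 16 exons) was at 7.05, 9.98, 2.97, 7.72 and 12.1 RPKM. Its log2 folds were 0.45, -1.02, 0.12 and 0.71. Day 1 was the single called difference of Abcg1 against sham, and it came to -0.98 after scaling, inside the limit, while the value on day 3 became -0.02. From 4 hours to day 1 it was at 0.297 of its level (log2 fold -1.47), and from day 1 to day 3 it had a log2 fold of 1.14. Its recovered reads were not whole in 4 libraries under the annotation used, so its ratios to sham have no counting interval. The ratio of Abca1 to Abcg1 was 10.1% in sham, 3.60% at 4 hours, 10.6% on day 1, 24.0% on day 3 and 30.9% on day 10.

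**Figure D4:**
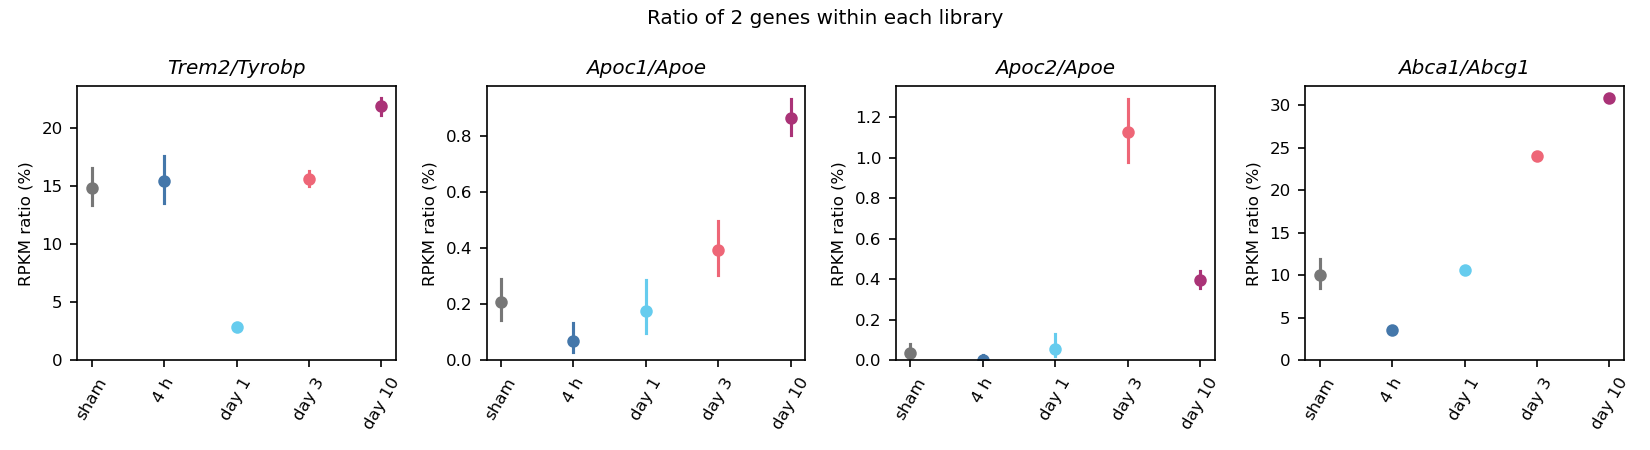
RPKM of 1 gene as a percent of another gene in the same library (vertical axes, each from 0), for 4 pairs in the 5 libraries (points), with 95% counting intervals as vertical lines where reads were whole. Trem2 relative to Tyrobp is lowest on day 1 (2.89%), Apoc1 relative to Apoe is highest on day 10 (0.865%) and Apoc2 relative to Apoe on day 3 (1.13%).

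Plin2, the lipid droplet coat protein, was highest on day 3. The highest value of Lpl was also on day 3, but its ratio of day 10 to day 3 was 0.898, with an interval that included 1 (0.751 to 1.07). Plin2 (ENSMUSG00000028494, chr4:86648386-86670060, - strand, 13 exons) was at 2.31 RPKM in sham, 2.22 at 4 hours, 17.0 on day 1, 77.4 on day 3 and 14.4 on day 10. It was level with sham at 4 hours and above it at the other 3 times. The sham ratio of this gene was 0.962 at 4 hours (0.778 to 1.19), 7.38 on day 1 (6.32 to 8.66), 33.5 on day 3 (28.9 to 39.1) and 6.23 on day 10 (5.33 to 7.33). Its log2 folds were -0.04, 2.45, 4.57 and 2.22, and among all genes analysed it ranked 33rd from the highest on day 1 and 3rd on day 3. From day 3 to day 10 it was at 0.186 of its level (0.175 to 0.198), a log2 fold of -2.35, and it was the only member called lower in that step, in which Apoe and Apoc1 were called higher.

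Soat1, which forms the cholesteryl esters that droplets store, was low in every library and had its largest ratios to sham on day 3 and day 10. Soat1 (ENSMUSG00000026600, chr1:156424525-156474331, - strand, 15 exons) was at 0.525, 0.722, 0.571, 1.21 and 1.22 RPKM. The ratio to sham was 1.38 at 4 hours (1.08 to 1.76), where the log2 fold was 0.18 and 0.02 after scaling. It was 1.09 on day 1 (0.840 to 1.41). On day 3 it was 2.30 (1.83 to 2.89) and on day 10 2.32 (1.87 to 2.91). The log2 folds of these 2 days, 0.53 and 0.54, did not reach the limit. With a pseudocount of 0.1 RPKM they were 1.06 and 1.08, past it. Plin2 was 4.39 times as high per length as Soat1 in sham (3.46 to 5.60), 29.8 times on day 1 (24.9 to 36.0), 64.2 times on day 3 (56.5 to 73.1) and 11.8 times on day 10 (10.3 to 13.4). The exon lengths used are 1.86 and 1.17 times those of the longest coding transcripts of Plin2 and Soat1, which affects these ratios alike in every library.

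The 4-hour library offered a reference other than sham, chosen after the data were seen. Against it 6 of the 10 were called higher on day 3 (9.52% of all genes) and 0 lower (6.92%), with a median of 1.45 against -0.19. At day 10, 7 were called higher (6.08%) and 0 lower (3.57%), with a median of 2.43 against -0.21. Apoc2, at 0 reads in that library, was higher with a lower counting limit of the ratio of 61.9 on day 3 and 88.8 on day 10. Choroid plexus and ependymal markers summed to 756 RPKM in the 4-hour library, against 89.4 in sham, 317 on day 1, 46.7 on day 3 and 19.7 on day 10. Ttr, the transthyretin gene of choroid plexus, made up most of it, at 729 RPKM at 4 hours, 77.4 in sham and 0.205 on day 10. Its tissue's part in the member values was not tested.

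The 10 genes differed in their courses. The distance between the 4 log2 folds against sham of a pair of members was smallest for Lpl and Soat1 (0.24). Both are low genes that stayed inside the size limit, and the 1 RPKM added draws the folds of low genes together. The distance was 1.05 for Abca1 and Apoe, 1.19 for Apoc2 and Trem2 and 2.17 for Trem2 and Tyrobp. Abcg1 and Plin2 were the farthest pair (5.86). Distances between pairs of other genes were not computed, so these values have no background. For each member the nearest of all genes analysed was no other member. With 12783 genes to choose from, that is likely for any 10 genes and does not show how close the members are. Trem2 lay nearest to Mpeg1 (distance 0.66), a perforin-like gene of macrophages, and C1qa (0.73), a complement gene made by microglia. Tyrobp lay nearest to S100a4 (0.22), a calcium-binding protein gene, and Gm42674 (0.27), which overlap each other. Apoe lay nearest to Mir6978 (0.49), a microRNA gene listed at 0 at 4 hours and day 1, and Cx3cr1 (0.81), the fractalkine receptor of microglia.

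Apoc1 lay nearest to the antigen presentation genes H2-Aa (0.68) and Cd74 (0.69). Apoc2 lay nearest to Gm44805 (0.37), whose exons it shares, and Gpnmb (0.42), a glycoprotein of lipid-laden macrophages. Abca1 lay nearest to H2-Oa (0.24) and Cmklr1 (0.28), the chemerin receptor, and Abcg1 to Gpr17 (0.32), a receptor of oligodendrocyte precursors, and Gm23751 (0.37). Plin2 lay nearest to S100a11 (0.83) and Capg (1.21), an actin-capping protein gene. Lpl lay nearest to Faap100 and AC165080.2 (0.07 each), and Soat1 to Snx18 (0.06) and Ogg1 (0.09), all with small folds. These distances describe 5 libraries and 4 folds that share the sham library.

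Other genes of the same pathways were counted from lists without the members. Of the 11 TREM2 signalling partners analysed, 7 were higher on day 3 (median 1.30) and 7 on day 10 (median 1.03, with 4 higher after scaling), and 0 were lower at any time. Hcst, the DAP10 adaptor next to Tyrobp, was at 3.97 RPKM on day 3 and 5.22 on day 10 against 0.740 in sham (1.51 and 1.84). Ms4a6d, a membrane gene of myeloid cells, was at 3.26 on day 1 and 4.90 on day 3 against 0.667 (1.35 and 1.82), the single partner called on day 1. Vav1, an exchange factor downstream of SYK, was at 3.65 on day 10 against 0.833 (1.34). All genes analysed had medians of 0.12 and 0.07 on day 3 and day 10, and 9.04% and 4.20% of them were called higher.

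The lysosomal lipid list had 7 of 14 genes higher on day 3 (median 1.02) and 6 of 14 on day 10 (0.86), with 0 called at 4 hours and day 1. Hexa, a lysosomal hexosaminidase gene, was at 48.5 RPKM on day 3 and 51.7 on day 10 against 11.9 in sham (1.93 and 2.03). Hexa overlaps Tmem202 in the annotation, and the strand setting of the counting is unknown.

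The other lists had fewer called genes on day 3 and day 10 than the TREM2 partner and lysosomal lists. Of all genes analysed, 2.20% were higher at 4 hours, 3.33% on day 1, 9.04% on day 3 and 4.20% on day 10. The shares lower at these times were 1.09%, 1.35%, 0.618% and 0.172%. Of 20 lipid droplet genes, 2 were higher on day 1, 3 on day 3 (median 0.17, with 2 higher after scaling) and 0 on day 10 (median 0.07, and -0.03 after scaling). Hilpda, an inhibitor of lipolysis, was at 20.1 RPKM on day 1 and 24.8 on day 3 against 4.16 in sham (2.04 and 2.32). G0s2, another inhibitor of lipolysis, was at 14.9 on day 1 against 6.11 (1.16), and Plin3, a droplet coat gene related to Plin2, at 16.7 on day 3 against 6.49 (1.24). At 4 hours Rab18, a droplet-associated GTPase, was the single droplet gene called, at 9.10 against 3.93 (1.04, and 0.68 after scaling).

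Of the 15 LXR and efflux genes other than Abca1 and Abcg1, 1 was lower on day 1, 2 were higher on day 3 and 2 on day 10, with medians of -0.25, 0.39 and 0.29. Pltp, a phospholipid transfer protein gene, was at 3.35 RPKM on day 1 against 8.16 in sham (-1.08), and Mylip, which degrades the LDL receptor, at 3.76 on day 10 against 1.07 (1.20). Arl4c, an LXR target, was at 4.73 on day 3 and 5.02 on day 10 against 1.65 (1.11 and 1.19), and Lpcat3, which remodels phospholipids, at 5.98 on day 3 against 2.47 (1.01). The day 3 values of Arl4c and Lpcat3 came to 0.99 and 0.87 after scaling, which leaves 0 of 15 called.

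Of the 3 other apolipoproteins analysed, 1 was higher on day 1 and on day 3, Apod, at 271 and 353 RPKM against 120 in sham (1.16 and 1.54), and on day 10 it was Apoc4. Of the 11 lipid uptake genes, Cd68, a scavenger receptor of lysosomes in macrophages, was at 211 on day 3 and 81.9 on day 10 against 12.8 (3.94 and 2.59). Angptl4, an inhibitor of lipoprotein lipase, was at 6.21 on day 1 against 2.43 (1.07), and Sort1, a sorting receptor, at 6.08 on day 3 against 14.6 (-1.14). Of the 14 fatty acid genes, 3 were higher on day 3, among them Fabp7, a fatty acid carrier of astrocytes and progenitors, at 11.1 against 2.01 (2.00), and Fabp5 at 91.9 against 37.3 (1.28).

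**Figure D5:**
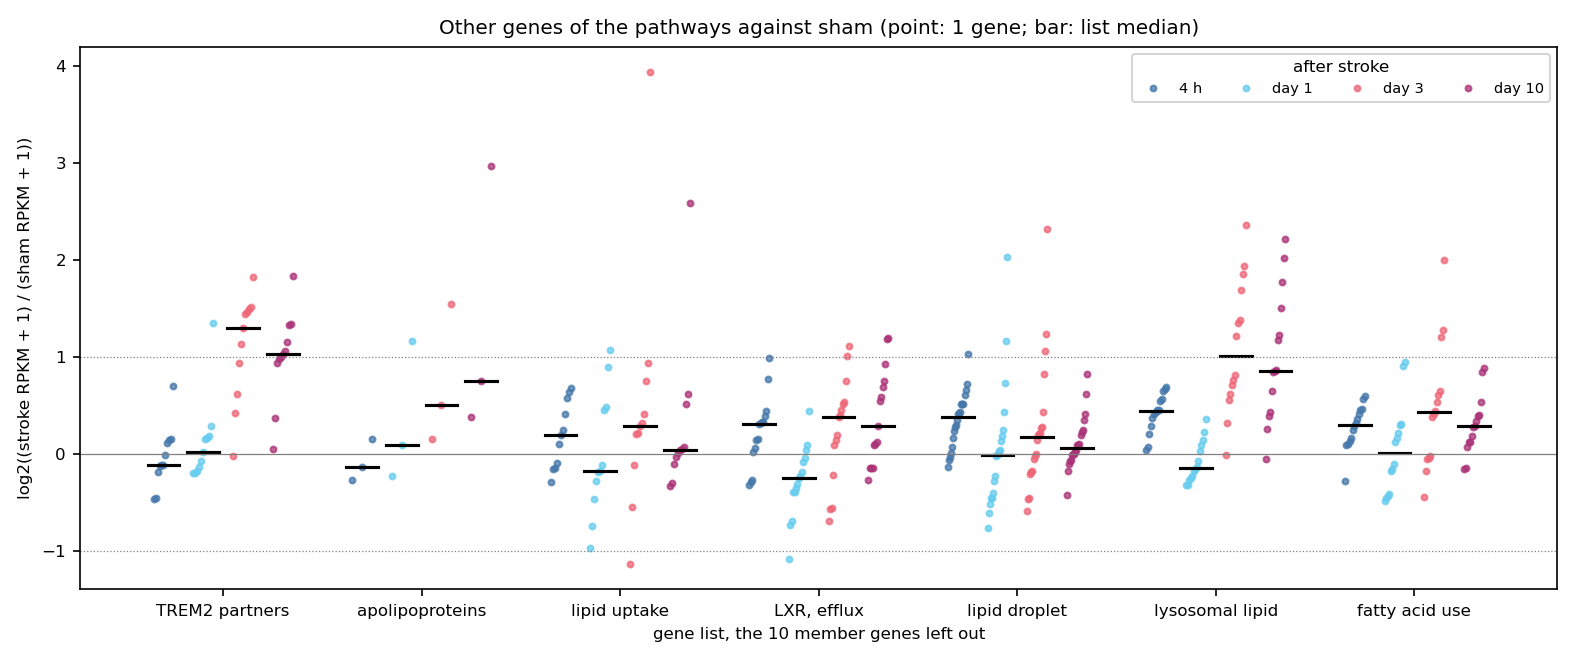
log2 fold against sham (vertical axis) of the genes of 7 pathway lists without the 10 members (points, 1 gene each; bars, list medians) at the 4 times after stroke. The medians of the TREM2 partners (1.30 and 1.03) and of the lysosomal lipid genes (1.02 and 0.86) are the highest on day 3 and day 10, and the dotted lines mark the size limit.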

How the data were processed

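RNA of 5 pooled libraries, 1 for each group, was measured. Per the submitters' processing notes, Trimmomatic 0.36, HISAT2 2.1.0, StringTie 1.3.4d and the build GRCm38 were used, with roles not given in the sources used here; annotation version and strand setting are not given either. The authors deposited 1 table with an RPKM value per gene and library, per the file headers. They also deposited a GFOLD value, a log2 fold shrunken for low reads (setting 0.01), for pairs of libraries; the other columns on pairs were not used. The 10 genes and all lists were chosen with earlier results of these data known.

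From the RPKM, genes reaching 1 RPKM in any library (at least 1 needed) were kept (12783 of 19221), and log2((RPKM + 1) / (reference RPKM + 1)) was computed. RPKM times the union exon length in GENCODE mouse release 21, which held 19158 of the gene identifiers, gave whole reads (within 0.02, below 5000 reads) for 90.4% to 90.5% of values. A fragment was taken as 2 reads. Exact conditional binomial intervals at 95% and a floor of 3 fragments cover counting error alone. They are too narrow even for that where PCR copies of a molecule were counted as separate reads. The scripts were tested on simulated data. Alternatives were a pseudocount of 0.1 RPKM, median-of-ratios and trimmed-mean-of-M-values scaling (trimming 30% of M and 5% of A), no filter, a filter of 5 RPKM, a size limit of 2 on the log2 scale and the authors' GFOLD value. The 4-hour library as reference was added after seeing the data.

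Named genes were all 10 members, up to 2 other genes of largest absolute log2 fold past the size limit per list and time, the 2 genes of nearest pattern (Euclidean distance over 4 log2 folds) per member, and markers at 0; 1 gene that this rule names is not reported here. Neighbouring genes were those within 50000 bases of a member, and the ones named were chosen after their values were seen. So were the markers Gfap, Lyz2, Arg1, Pf4, Ttr, Retnlg, S100a8, S100a9 and Csf3r. Of the marker lists, oligodendrocyte (10 genes), striatal projection neuron (12), general neuron (10), endothelial (5 analysed) and choroid plexus and ependymal (8 analysed) markers had median log2 folds at 4 hours, day 1, day 3 and day 10 of 0.83, 0.20, -0.10 and 0.05; 0.29, -1.00, -0.43 and -0.21; 0.48, -0.41, -0.57 and -0.17; -0.02, 0.06, 0.50 and 0.07; and 0.91, 0.30, -0.19 and -0.14. Median-of-ratios scaling turned the sign of the projection neuron median at 4 hours (-0.09), and of the oligodendrocyte (-0.07) and endothelial (-0.01) medians on day 10. A motif search in the Tyrobp protein was not made, as no protein sequence was used here. Python 3.11.15, numpy 2.4.6, pandas 2.3.3, scipy 1.17.1 and matplotlib 3.10.9 were used.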

Additional observations from a re-analysis of the deposited data

Results flagged for a closer look

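For 6 of the 10 genes the ratio to sham was below 1 at an early time and above 1 at day 10, with counting intervals on opposite sides of 1. Abcg1, at 0.421 of sham on day 1 and 1.72 times sham on day 10, has no intervals and so could not be counted. The share of all genes analysed that meets this rule was not computed, so the count has no background to be read against. Trem2 was at 0.451 of sham at day 1 and 11.2 times sham at day 10. Tyrobp was at 0.655 of sham at 4 hours and 7.64 times sham at day 10. Apoe was at 0.539 of sham at day 1 and 4.67 times sham at day 10. Apoc1 was at 0.252 of sham at 4 hours and 19.5 times sham at day 10. Apoc2 was at a ratio of 0 at 4 hours, with 0 reads there, and 49.5 at day 10. Abca1 was at 0.442 of sham at day 1 and 5.27 times sham at day 10. The difference between the times was not tested, because each time is 1 library, and all ratios share the sham library.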

How the results depend on the processing

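No paired analysis was possible because each group is 1 library, and none could be left out. Against sham at 4 hours, 2 members were lower with a pseudocount of 0.1 RPKM and 1 with either scaling or the authors' deposited GFOLD value, against 0. The member median there was -0.47 with that pseudocount, -0.43 with either scaling and -0.44 with the filter of 5 RPKM, against -0.36. At day 1, 3 were lower with that pseudocount and 0 with either scaling or a size limit of 2, which left 1 higher; the median was -0.55 with the pseudocount and -0.65 with the filter. At day 3 the pseudocount gave 7 higher and a median of 1.18, the filter 2.64 and the 4-hour reference 1.45. At day 10 the median was 2.42 with the pseudocount, 2.09 with median-of-ratios scaling, 2.91 with the filter and 2.43 with the 4-hour reference. From 4 hours to day 1 the median, -0.02, was 0.12 and 0.11 with the scalings and 0.34 with the filter, and a size limit of 2 left 1 higher and 0 lower. From day 1 to day 3 the median was 1.83 with the pseudocount, 1.52 with the filter and 1.53 with GFOLD, and the size limit of 2 left 3 higher. The filter of 5 RPKM drops Lpl, Abca1 and Soat1, which are low. Other causes were not tested. Among 70 single-gene values the sign differed for 4 with either scaling, none of them called, and for 0 with the pseudocount, no filter or GFOLD; the call differed for 9 with the pseudocount, 4 with each scaling and 2 with GFOLD. Of 20 values against the 4-hour reference, 1 differed in sign and 2 in call. Over all genes, the pseudocount of 0.1 gave 835 higher and 377 lower at 4 hours, against 281 and 139, and median-of-ratios scaling 69 and 260. The same pseudocount gave 771 and 604 at day 1 (426 and 172), 1780 and 321 at day 3 (1156 and 79), and 1034 and 71 at day 10 (537 and 22). Apoc1 at 4 hours and Apoc2 before day 3 rest on under 20 reads, so depth limits their ratios.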
